A study of Homo sapiens with 24 samples.

Results

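The regions described here are those whose chromatin accessibility changed in VAL cells after 3 h of CDK9 inhibition (CDK9i) with 30 nM AZD4573. They are every entry of the deposited increased and decreased lists for that comparison, 3545 regions with increased and 1786 with decreased accessibility. These 5331 regions are part of 26369 distinct regions listed in any of the 8 lists of the series. VAL is an established, immortalized diffuse large B-cell lymphoma (DLBCL) line, with no genetic change or second agent named in the labels, and it was assayed by ATAC-seq, which reads open chromatin from the cuts of a transposase. The 0 h group and the 3 h group had 4 libraries each, 2 prepared by the standard protocol from 50000 cells and 2 by Fast-ATAC. The labels give 5000 cells for Fast-ATAC, whereas the protocol text gives 50000. The lists name the control DMSO, whereas the labels give it as 0 h. A second line, OCI-LY3, and an 8 h time point were handled in the same way and are used here only to set calls side by side. The lists hold coordinates only, with no fold change and no value per library. The spread between replicates and the depth behind each call cannot be read from them, and all intervals below cover the counting of regions or genes only.

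CDK9 is the kinase of P-TEFb, the complex that phosphorylates RNA polymerase II (RNAPII) and the factors that hold it in a paused state just downstream of the transcription start site (TSS). Release of paused RNAPII is needed for elongation through the gene body, and after the polyadenylation site RNAPII travels on for some distance before it terminates. In B-cell lymphomas short-lived transcripts such as those of MYC and MCL1 are known to be sensitive to loss of CDK9 activity.

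Central windows of 200 bp are printed for 8 of the regions, on the plus strand of hg19, 5′ to 3′, because they stand for the promoter, intron and gene-end regions that the results turn on. They were picked among named regions that hold a searched motif and no repeated sequence. Capitals mark every match, on either strand, to one of the 14 short motifs whose shares are given further on. The first 5 come from regions of increased accessibility, 4 of them at promoters and 1 in an intron. They lie at chr16:2587743-2587942 (PDPK1, the kinase that activates AKT), chr7:73588457-73588656 (EIF4H, a cofactor of the translation helicase), chr1:1334752-1334951 (CCNL2, which encodes cyclin L2, a regulator of pre-mRNA splicing), chr19:50921788-50921987 (SPIB, an ETS factor of B cells) and chr22:50731539-50731738 (PLXNB2, a semaphorin receptor).
PDPK1: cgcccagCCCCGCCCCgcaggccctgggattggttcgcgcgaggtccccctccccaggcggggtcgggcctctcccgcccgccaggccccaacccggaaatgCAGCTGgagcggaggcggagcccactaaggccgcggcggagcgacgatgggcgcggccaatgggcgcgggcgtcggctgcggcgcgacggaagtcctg
EIF4H: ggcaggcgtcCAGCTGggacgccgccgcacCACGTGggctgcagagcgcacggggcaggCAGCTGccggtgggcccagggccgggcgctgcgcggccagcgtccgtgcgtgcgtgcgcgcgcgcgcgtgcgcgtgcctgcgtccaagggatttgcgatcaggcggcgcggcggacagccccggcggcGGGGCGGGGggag
CCNL2: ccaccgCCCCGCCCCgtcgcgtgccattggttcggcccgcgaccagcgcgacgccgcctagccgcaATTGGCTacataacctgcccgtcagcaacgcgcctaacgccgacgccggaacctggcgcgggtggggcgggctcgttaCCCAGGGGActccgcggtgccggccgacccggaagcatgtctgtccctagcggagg
SPIB: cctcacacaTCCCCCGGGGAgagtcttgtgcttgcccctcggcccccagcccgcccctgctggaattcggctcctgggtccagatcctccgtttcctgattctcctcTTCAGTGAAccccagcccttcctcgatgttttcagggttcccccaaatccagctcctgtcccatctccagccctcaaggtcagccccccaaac
PLXNB2: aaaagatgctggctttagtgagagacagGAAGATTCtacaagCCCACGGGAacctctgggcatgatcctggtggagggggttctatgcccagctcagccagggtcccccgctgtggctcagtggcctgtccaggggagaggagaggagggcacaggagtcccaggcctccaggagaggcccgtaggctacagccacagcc
The capitals of the PDPK1, EIF4H and CCNL2 windows include matches to GGGGCGGGG, the letters searched for SP/KLF factors. The other 3 come from regions of decreased accessibility at chr18:60842765-60842964 (an intron of BCL2, the anti-apoptotic founder of its family), chr7:26227310-26227509 (past the end of the canonical transcript of HNRNPA2B1, an RNA-binding splicing factor) and chr11:111229842-111230041 (an intron of POU2AF1, the B-cell coactivator of octamer-binding factors).
BCL2: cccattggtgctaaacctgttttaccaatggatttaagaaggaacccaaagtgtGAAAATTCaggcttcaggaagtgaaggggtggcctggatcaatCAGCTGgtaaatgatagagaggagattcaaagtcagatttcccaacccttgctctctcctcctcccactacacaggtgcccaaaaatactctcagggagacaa
HNRNPA2B1: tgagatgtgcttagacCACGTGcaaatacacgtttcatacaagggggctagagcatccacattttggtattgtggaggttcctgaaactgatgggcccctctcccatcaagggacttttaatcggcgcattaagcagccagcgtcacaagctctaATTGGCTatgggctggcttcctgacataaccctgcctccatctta
POU2AF1: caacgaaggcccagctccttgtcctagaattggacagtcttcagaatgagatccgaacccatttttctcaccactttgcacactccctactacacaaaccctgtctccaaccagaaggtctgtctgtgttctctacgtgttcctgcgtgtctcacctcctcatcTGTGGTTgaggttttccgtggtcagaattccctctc
None of the 3 windows of decreased regions holds a match to the SP/KLF letters. The capitals of the SPIB window are matches to the EBF and STAT letters, those of the PLXNB2 window to the EBF and HSF letters, those of BCL2 to the HSF and E2A letters, and that of POU2AF1 to the RUNX letters.

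Most changed promoter regions had increased accessibility, whereas outside promoters increased and decreased regions were about as many, 1644 and 1653. By the midpoint of the region, 1901 of 3545 increased regions (53.6%, 95% Wilson interval 52.0 to 55.3) lay within 1000 bp of a TSS of any annotated transcript, against 133 of 1786 decreased regions (7.45%, 6.32 to 8.76). Introns held 29.1% of the increased and 53.6% of the decreased regions. Intergenic sequence held 14.6% of the increased regions and 34.1% of the decreased regions. Exons outside promoters held the remaining 2.76% and 4.82%. The median distance from the midpoint to the nearest coding TSS was 3647 bp for increased and 57524 bp for decreased regions. Of the increased promoter regions, 1734 of 1901 (91.2%) were at a protein-coding promoter, whereas the 133 decreased promoter regions were divided between 51 at protein-coding genes, 53 at lncRNA genes, 16 at pseudogenes and 13 at other genes.

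Regions that opened at a TSS were centred just inside the transcribed side. Among the 1624 increased regions with a midpoint within 1000 bp of the nearest coding TSS, 1027 (63.2%, 60.9 to 65.6) had it downstream, with a median position of 60 bp past the TSS and quartiles of -51 and 195 bp. The 39 decreased regions so close to a coding TSS had a median position of 109 bp. Within coding introns, 275 of 778 increased regions (35.3%, 32.1 to 38.8) were in the first intron, against 111 of 616 decreased regions (18.02%, 15.2 to 21.2), and first introns make up 24.6% of all coding intron sequence. The coding genes that carried the intronic regions were long, with a median span of 75199 bp for increased and 183500 bp for decreased regions, against 27220 bp over 20162 coding gene identifiers, some of which share a symbol.

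**Figure D1:**
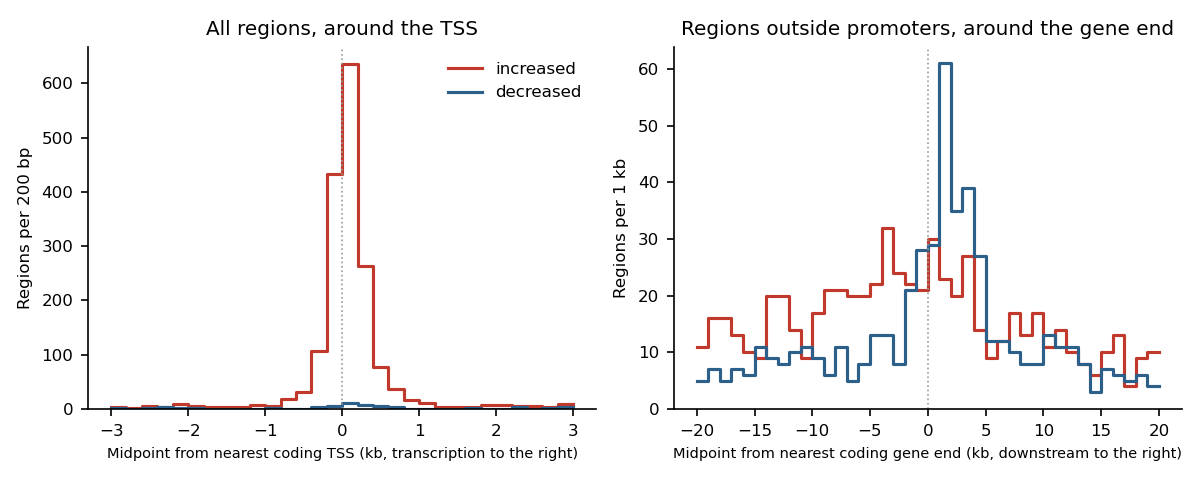
Number of regions of increased (red) and decreased (blue) accessibility by distance of the midpoint from the nearest coding TSS in bins of 200 bp (left) and, for regions outside promoters, from the nearest coding gene end in bins of 1 kb (right). Increased regions pile up at the TSS with a median 60 bp past it among those within 1000 bp, and decreased regions peak past the gene end, with 61 regions between 1000 and 2000 bp downstream.

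The promoters of 2078 of 20136 coding genes (10.3%) overlapped an increased region, and those of 65 (0.323%) a decreased region, when a promoter is the 1000 bp on either side of any TSS of the gene. Genes with an opened promoter were compact, with a median span of 19026.5 bp against 27217 bp for all coding genes. Promoters that drive a pair of coding genes in opposite directions were frequent among them: 451 of the 2078 (21.7%, 19.98 to 23.5) had the canonical TSS of another coding gene within 1000 bp upstream on the other strand, against 1876 of all 20136 (9.32%, 8.92 to 9.73). A single region at such a pair can count for both genes, so the 451 are not independent. How far this raises the share was not tested. Single-exon genes made up 2.65% of the opened set and 5.34% of all coding genes. The gene lists below were compared with the 10.3% over all coding genes as a description only. The lists hold many housekeeping genes, and the share of their promoters that was open at 0 h is unknown from lists of changed regions.

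Genes of the transcription machinery were among those with opened promoters. Of 14 genes for RNAPII subunits, 7 had an increased promoter, including POLR2A, which encodes the largest subunit and whose region spans its TSS, and POLR2E with 3 increased regions at the locus (the gene and 10000 bp on either side). Of 20 genes for pausing and elongation factors, 8 had an increased promoter, among them SUPT5H (the DSIF subunit SPT5), NELFB and NELFE (subunits of the pausing factor NELF), SUPT6H, PAF1, LEO1 and RTF1 (elongation factors) and INTS11 (the nuclease of Integrator). At SUPT5H there were 3 increased regions, and each was listed as increased in all 4 comparisons of the 2 lines and 2 times. CDK9, the target of the inhibitor, had 1 increased region of 1871 bp across its TSS, listed again in VAL at 8 h and not listed in OCI-LY3. Of the 20 genes for P-TEFb, its 7SK inhibitor complex and the super elongation complex, 4 promoters opened (CDK9, CDK12, HEXIM2 and MLLT1). Of 33 Mediator genes, 13 had an increased promoter. MED16 and MED26, both subunits of Mediator, carried 4 increased regions each at their loci. No promoter in these 4 lists overlapped a decreased region, against 0.323% of all coding genes. At the locus 2 of the 20 pausing and elongation genes (CTR9 and TCEA1) had one. So did 1 of the 20 P-TEFb and related genes (MLLT3) and 2 of the 33 Mediator genes (CCNC and MED12L). Beside 5.90% of all coding genes, counts this small are not read as a result about these lists.

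Of 88 genes of cytosolic ribosomal proteins, 32 (36.4%) had an increased promoter and none a decreased one, and 18 (20.5%) had a decreased region at the locus, against 5.90% of all coding genes (1189 of 20136). Of 77 genes of mitochondrial ribosomal proteins, 21 had an increased promoter and 4 a decreased region at the locus. Of 60 translation factors, 16 had an increased promoter, among them EIF4A1 and EIF4A2 (the helicases of cap-dependent initiation), 1 had a decreased promoter, EIF5A2, and 5 had a decreased region at the locus. RPL37 had 3 decreased regions at its locus and no increased one, and RPSA, the ribosomal protein also known as the laminin receptor, had 2 decreased regions and 1 increased. FAU, a ribosomal protein made as a ubiquitin-like fusion, had 3 increased regions at its locus, and EIF4H had 3. Proteasome subunits had 8 of 39 promoters increased, and glycolytic enzymes 7 of 19 (ALDOA, GAPDH, GPI, PFKL, PKM, SLC2A1 and TPI1, the enzymes or the glucose transporter of the pathway). The replication-dependent histone genes, whose transcripts end in a stem-loop in place of a poly(A) tail, had 11 of 64 promoters increased and none decreased. At the histone genes H2AC4 and H2BC3 the increased regions measured 2705 and 2783 bp, and both were listed again in VAL at 8 h. Of 42 small nuclear and related RNA genes, 1 (RNU6-9) had an increased promoter and none a decreased one.

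Several lists stood near the background or below it. The SR and hnRNP splicing factors had 5 of 38 promoters increased (13.2%), the zinc finger ZNF genes 72 of 508 (14.2%) and the genes of MHC class II and its regulators 2 of 16 (12.5%). The ZNF genes on chromosome 19 had 34 of 246 promoters increased (13.8%, 10.1 to 18.7), against 348 of 1234 other coding genes of that chromosome (28.2%, 25.8 to 30.8). Olfactory receptor genes, expressed mainly in the nose, had 0 of 412 promoters increased and 1 decreased (OR2A14). The promoters of 19 T-cell markers and of 20 monocyte and macrophage markers held no increased and no decreased region. Of 19 B-cell surface markers 4 (21.1%) had an increased promoter, among them CD37, CD79A and CD79B. Another 2 (CD38 and MS4A1, 10.5%) had a decreased region at the locus, against 5.90% of all coding genes. At the locus, 2 of the 19 T-cell markers and 2 of the 20 monocyte and macrophage markers had an increased region, and 1 T-cell marker a decreased one. The lists are short, and the difference between them was not tested. The lists hold changed regions only, so they do not show which markers were open in VAL cells at 0 h.

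**Figure D2:**
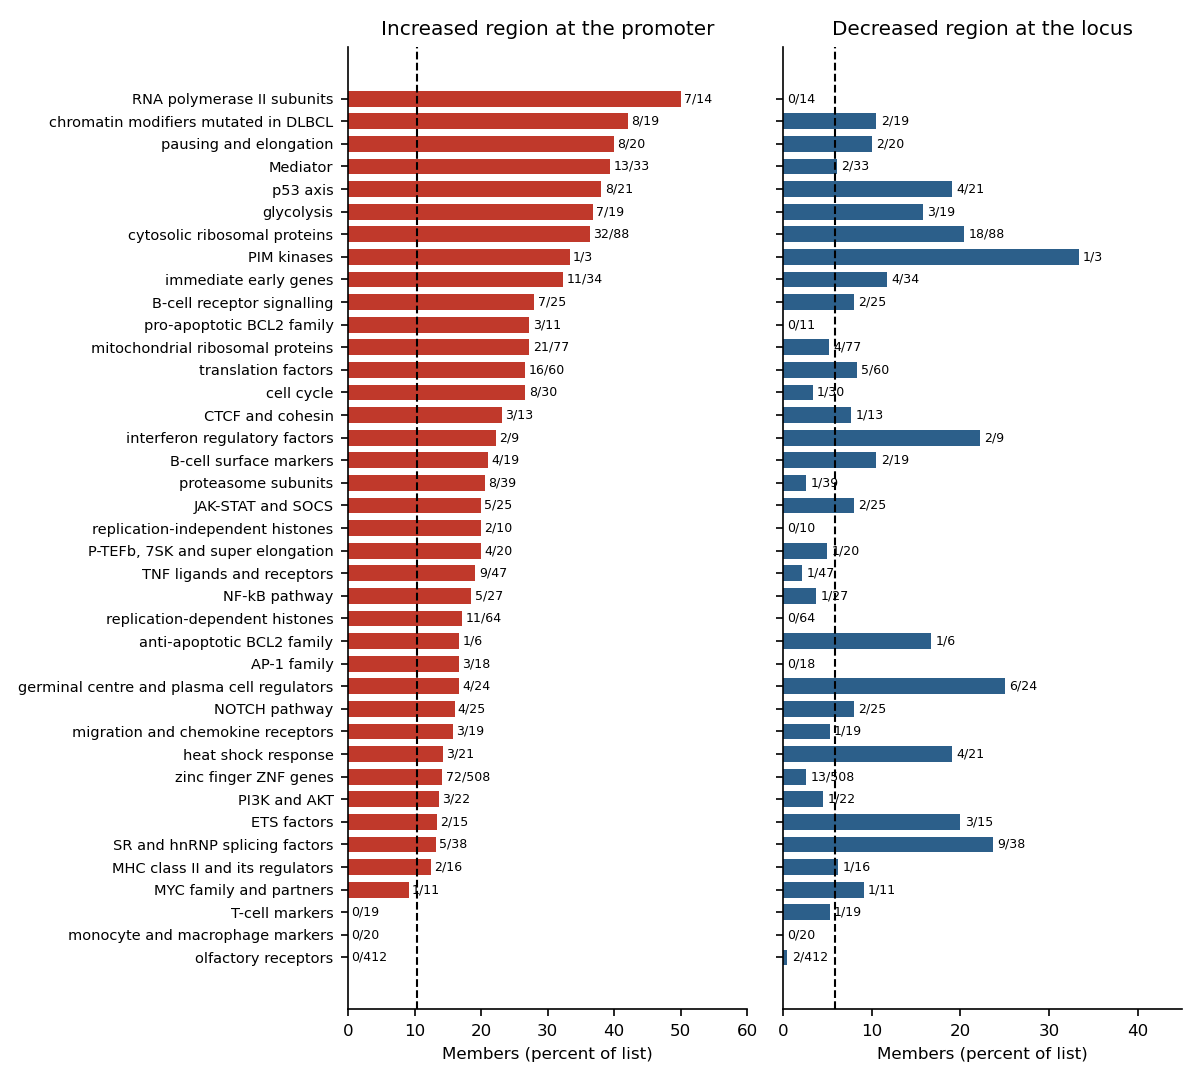
Percent of the members of each gene list, other than the genes the study names, with an increased region at the promoter (left, red) and a decreased region at the locus (right, blue), with the number of members beside each bar and the share over all 20136 coding genes as a dashed line (10.3% and 5.90%). RNAPII subunits, with 7 of 14 promoters increased, lead the left panel, and splicing factors, with 9 of 38, and ribosomal proteins, with 18 of 88, are among the longest bars on the right in lists of over 30 genes.

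Of the 18 genes that the study names, 10 had an increased promoter (AKT1, BAX, BBC3, CDKN1A, DTX1, IRF8, JUNB, MCL1, PIM3 and PLCG2) and 2 a decreased region at the locus (MYC and PIM1). The study names them from results of several assays, and their count is a description. Immediate early genes, which cells induce within minutes of a stimulus without new protein, had 11 of 34 promoters increased: BTG2, GADD45B, IER2, IER3, IER5L, JUNB, MCL1, NR4A1, PIM3, SRF and ZFP36. JUNB, an AP-1 subunit, had 4 increased regions at its locus, of 1120, 1123, 2968 and 1019 bp, and all 4 were listed again in VAL at 8 h, whereas the region of 2968 bp over the gene alone was listed in OCI-LY3 at 3 h. IER2 had 3 increased regions, 2 of them at its promoter, and none was listed in OCI-LY3 at either time. The kinase gene PIM3 had 1 increased region across its TSS, and PIM1 had no increased region but 1 decreased region of 739 bp, its midpoint 1658 bp past the gene end. At MYC, the oncogenic transcription factor, no region was increased, and 1 region of 1615 bp was decreased with its midpoint 6094 bp past the TSS, in exonic sequence. OCI-LY3 had that MYC region as decreased at both times, and the 8 h list of VAL lacked it.

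Of 11 pro-apoptotic genes of the BCL2 family, 3 (27.3%) had an increased promoter, and of 6 anti-apoptotic ones MCL1 alone (16.7%). The share over all coding genes was 10.3%. At the locus, 5 of the 11 and 3 of the 6 had an increased region, with BCL2L2 among the latter. These counts are too small to set the groups apart. BBC3, which encodes the BH3-only protein PUMA, had 5 increased regions within its locus, between positions 47712836 and 47743211 of chromosome 19, and all 5 were listed again in VAL at 8 h. BAX, a pore-forming effector of apoptosis, had 1 increased region across its TSS, listed in all 4 comparisons, and BIK, a BH3-only protein, had 3 increased regions, 1 of them across its TSS. MCL1, an anti-apoptotic protein, had 1 increased region of 1623 bp across its TSS, listed in all 4 comparisons. BCL2L1, which encodes BCL-XL, had 1 increased intronic region of 1034 bp, also listed in all 4. The p53 axis had 8 of 21 promoters increased, among them BBC3, BTG2, CDKN1A, DDB2, PHLDA3 and TNFRSF10B. CDKN1A, the cell cycle inhibitor p21, had 3 increased regions, the widest of 2927 bp across its TSS. None of the 21 promoters overlapped an increased region in OCI-LY3 at 3 h, although the CDKN1A region of 1313 bp, 3965 bp past the TSS, was listed there. Over all coding genes, 1193 of 20136 had an increased promoter in OCI-LY3 at 3 h, against 2078 in VAL. Few were therefore to be expected among the 21, and their absence is not read as a result. BAX, which is not among the 21 genes, had its promoter region listed in OCI-LY3 as well. The difference between the lines was not tested. MDM2, the ligase that targets p53 for degradation, had 2 increased regions, 41701 and 46760 bp past its canonical TSS. Of the 21 genes, 4 had a decreased region at the locus (BTG2, CCNG1, RRM2B and ZMAT3), and ZMAT3, a p53 target that binds RNA, had 4 decreased regions and no increased one.

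Other pathways had increased promoters at 3 to 9 members each. Of 27 NF-kB pathway genes, 5 had one (NFKBID, RELA, RELB, TRAF2 and TRAF3), and RELB, a subunit of the alternative pathway, had 4 increased regions at its locus. Of 25 NOTCH pathway genes, 4 had one (DLL3, DTX1, NOTCH1 and NRARP), and the receptor gene NOTCH1 had 4 increased regions, all listed again in VAL at 8 h and none in OCI-LY3 at either time. Of 25 JAK-STAT and SOCS genes, 5 had one (JAK3, SOCS7, STAT5B, STAT6 and TYK2), while the kinase gene JAK1 had 3 decreased regions. Of 47 TNF ligands and receptors, 9 had one, and of 22 PI3K and AKT genes 3 (AKT1, PDPK1 and TSC2). Of 30 cell cycle genes, 8 had one, among them CCND3, CCNE1 and E2F1 (cyclins D3 and E1 and a factor of the G1/S transition). Of 21 heat shock genes, 3 had one (DNAJB1, HSF1 and HSPA1B, a cochaperone, the stress-responsive factor and an HSP70), and 4 had a decreased region at the locus (CHORDC1, DNAJA1, HSPA8 and HSPD1). Beside the 10.3% of all coding genes, these lists lay between 13.6% and 26.7%.

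B-cell genes had regions of both directions at their loci, although no promoter in the lists of this paragraph overlapped a decreased region. Over all coding genes, 10.3% had an increased promoter. Of 25 genes of B-cell receptor signalling, 7 had an increased promoter, among them CD79A, CD79B and CD81 at the cell surface, the phospholipase PLCG2, and the exchange factors VAV1 and VAV2. VAV2 had 6 increased regions from its promoter to 205416 bp into the gene, all listed again in VAL at 8 h and none in OCI-LY3 at 3 h. LYN, a kinase of the receptor, had 1 increased intronic region and 1 decreased region past its end, and the adaptor gene DAPP1 had 1 decreased intronic region. Of 24 regulators of the germinal centre and of plasma cells, 4 had an increased promoter: ID3 and TCF3 (an inhibitor of E proteins and an E protein), IKZF3 (a zinc finger factor) and S1PR2 (a receptor that confines B cells to the germinal centre). TCF3 and S1PR2 had 4 increased regions each. Another 6 had a decreased region at the locus: BACH2, BCL6, IKZF1, MEF2C, POU2AF1 and TCF4, all transcription factors or coactivators. Of 15 ETS factors, 2 (SPI1 and SPIB) had increased promoters, in both lines at 3 h, whereas 3 (ELF1, ETV6 and FLI1) had decreased regions and no increased one. IRF8 and IRF3, interferon regulatory factors, had increased promoters, whereas IRF1 had 1 decreased region and IRF2 had 2. Of 19 chromatin modifiers mutated in DLBCL, 8 had an increased promoter (among them CREBBP, EP300, HDAC7, KMT2D, NCOR1, SETD1B and SMARCA4). SMARCA4, an ATPase of the SWI/SNF remodeller, had 6 increased regions, and EZH2, the methyltransferase of Polycomb, had 1 decreased region past its end.

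BCL2 carried more decreased regions than any other coding gene. All 13 lay inside the gene, between positions 60842252 and 60975653 of chromosome 18, on the minus strand, at distances of 11754 to 144137 bp from the TSS, and none touched its promoter. No region was increased at the locus. Of the 13, 11 were listed as decreased again in VAL at 8 h, when 15 regions of the locus were listed, whereas OCI-LY3 had none of them listed at 3 h and 1 at 8 h. BACH2, which encodes a repressor that holds back plasma cell differentiation, came next with 11 decreased regions, 10 of them inside the gene between 98299 and 215954 bp from its TSS. Of these 11, 4 were decreased again in VAL at 8 h, and 1 was decreased in OCI-LY3 at 3 h. A region of 1835 bp at the far end of the BACH2 locus was the 1 increased region there at 3 h, and it was listed as decreased at 8 h. RFTN1, a lipid raft protein of B cells, followed with 6 decreased regions, then TMPRSS15, a transmembrane protease, with 5, and genes with 4 included AFF3, FOXP1, LSAMP, OXNAD1, SYNPO2 and ZMAT3.

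**Figure D3:**
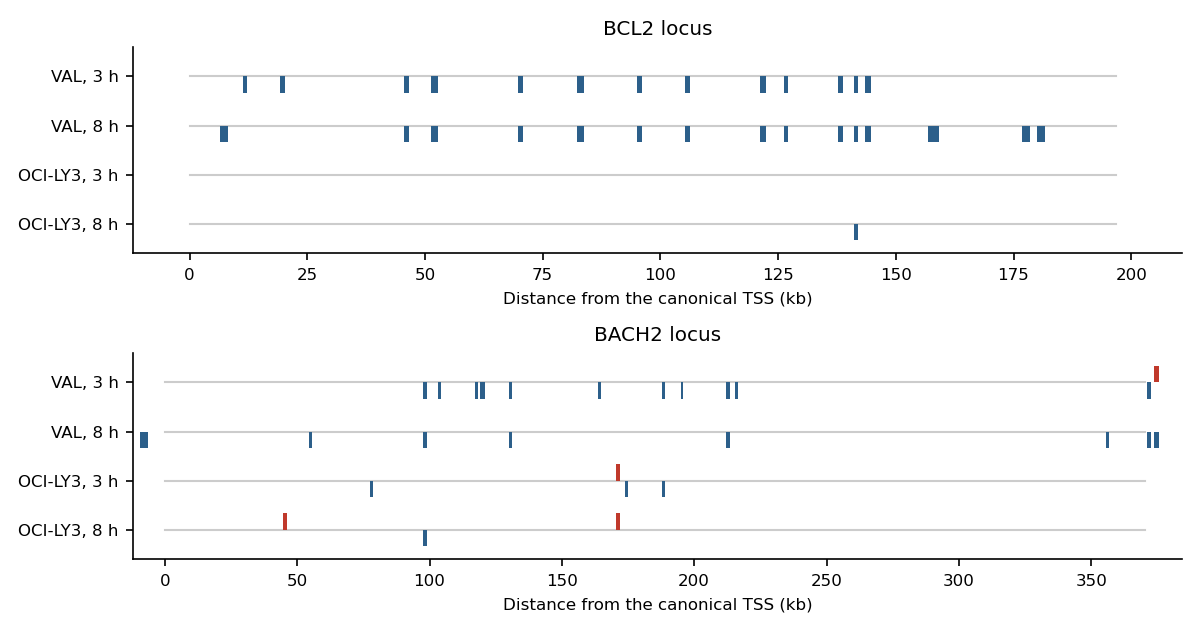
Regions listed along BCL2 and BACH2 in the 4 comparisons against 0 h, by distance from the canonical TSS in kb, with increased regions drawn above (red) and decreased regions below (blue) the grey line that spans the gene; marks narrower than 1 kb are widened to 1 kb. VAL at 3 h has 13 decreased regions at BCL2 and 11 at BACH2, and OCI-LY3 at 3 h has none at BCL2 and 3 at BACH2.

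Decreased promoters were few. Among the 65 coding genes with one were FOXP1 and ZEB2 (transcription factors), GPR174 and GPR65 (G protein-coupled receptors of lymphocytes), TLR4 (the receptor for bacterial endotoxin) and CTSC (a lysosomal protease). The widest decreased region, of 2856 bp, covered the GPR174 promoter and was also decreased at 8 h in both lines. A region of 2805 bp at the promoter of TSPOAP1, which encodes a partner of the mitochondrial translocator protein, was decreased in all 4 comparisons. A region of 2815 bp nearest to UCP2, a mitochondrial carrier, and one of 2811 bp nearest to TLR2 were also decreased in all 4. Genes with a decreased region anywhere at the locus were long, with a median span of 89381 bp, and 6.22% of them shared a divergent promoter.

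Decreased regions outside promoters lay more often than increased ones in a zone downstream of gene ends. Within 1000 bp of the end on either side the intervals overlapped, with 57 of 1653 decreased (3.45%, 2.67 to 4.44) and 51 of 1644 increased regions (3.10%, 2.37 to 4.06). The zone, the 5000 bp past the canonical end of a coding gene, was defined after the lists had been seen. It held 213 of 1653 decreased regions outside promoters (12.9%, 11.4 to 14.6) and 138 of 1644 increased ones (8.39%, 7.15 to 9.83), while the zone makes up 2.75% of the genome outside promoters. The odds of lying there were 1.61 times higher for decreased than for increased regions (95% interval 1.29 to 2.02), and the share was higher for decreased regions on 16 of 22 autosomes. No p is given, because the zone was chosen on these lists, and with a zone of 10000 bp the odds ratio was 1.12.

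The gene-end regions were listed in the second line more often than other decreased regions. Of the 213, 117 (54.9%, 48.2 to 61.5) were also decreased in OCI-LY3 at 3 h, whose 0 h libraries are separate, against 133 of the 1440 other decreased regions outside promoters (9.24%, 7.85 to 10.8). The odds ratio was 11.9 (8.64 to 16.5). In OCI-LY3 at 3 h the zone held 291 of 1465 decreased regions outside promoters (19.9%) and 34 of 808 increased ones (4.21%). In VAL the increased regions of the zone were shared no more often than others, 10.1% against 11.0%, with overlapping intervals.

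The 213 regions lay past the ends of 224 coding genes, 1.11% of the 20136, and 126 of these genes (56.2%) also had one in OCI-LY3 at 3 h. Increased regions lay in the zone of 150 genes (0.745%). Of 38 SR and hnRNP splicing factors, 8 had a decreased region there (HNRNPA1, HNRNPA2B1, HNRNPA3, HNRNPDL, HNRNPF, HNRNPK, SRSF7 and TRA2B), and the same 8 had one in OCI-LY3 at 3 h. Of 88 cytosolic ribosomal protein genes, 10 had one (RPL10A, RPL21, RPL32, RPL35, RPL37A, RPS12, RPS20, RPS24, RPS3A and RPSA), and 9 of the 10 had one in OCI-LY3. The region past RPS12 measured 2715 bp, with its midpoint 2688 bp past the end of the gene, and the region past HSPA8, the constitutive HSP70 chaperone, measured 2214 bp with its midpoint at 2871 bp. The region past HNRNPK measured 2290 bp, with its midpoint at 2694 bp. Each of these 3 was decreased in all 4 comparisons.

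Other genes with such a region, chosen for mention after their values were seen, were ACTB, PTMA, NPM1, PABPC1, YWHAZ and TMSB4X, which encode abundant proteins of the cytoskeleton, nucleus and cytosol. Others named in this way were CD74, the invariant chain of MHC class II, and JCHAIN, the joining chain of IgM and IgA, with 2 decreased regions each. CD38, MS4A1 (which encodes CD20), PTPRC (which encodes CD45), IRF1, BCL6 and TCF4 had 1 each. By list, such a region lay past 2 of 19 B-cell surface markers and 3 of 24 germinal centre and plasma cell regulators. It lay past 1 of 25 genes of B-cell receptor signalling and 1 of 16 of MHC class II, against 1.11% of all coding genes. These small counts were not tested. The BCL6 region measured 2034 bp with its midpoint 1719 bp past the end, and the IRF1 region 1700 bp with its midpoint at 885 bp. Both were decreased in all 4 comparisons. The LDHA and LDHB regions, at the subunit genes of lactate dehydrogenase, lay 795 and 1296 bp past the end. Over the genes as a whole the median position was 2289 bp past the end.

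A few genes opened at the promoter and closed past the end. Of the 2078 genes with an increased promoter, 30 (1.44%) had a decreased region somewhere at the locus, which is 2.52% of the 1189 genes with a decreased locus, and 91 genes had regions of both directions at the locus. Of the 224 genes with a decreased region past the end, 10 (4.46%) had an increased promoter, below the 10.3% over all coding genes: BTG2, EIF4A2, MAT2A, MBNL1, NOP56, PCBP2, PPIA, PRPF38B, RPL10A and UBE2D3. At EIF4A2, an increased region of 1918 bp at the TSS and a decreased region of 2730 bp, its midpoint 888 bp past the end, were both listed in all 4 comparisons. At BTG2, an antiproliferative p53 target, the increased region of 2821 bp was listed again at 8 h in both lines, whereas the decreased region of 514 bp was listed at 3 h in VAL alone.

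Regions of one direction within 20000 bp of each other were joined into clusters. Of the increased regions, 38.3% shared a cluster with another, and 37 clusters held 5 or more. Of the decreased regions 12.4% did, and 4 clusters held 5 or more, but the lists differ in length, so these shares are not compared. The clusters with most increased regions had 13 each. One, of 189 kb at chr9:140008749-140197491, ran over 19 coding genes that include GRIN1 (a glutamate receptor subunit), ANAPC2 (a subunit of the anaphase-promoting complex), NELFB, NRARP (a target and regulator of NOTCH) and TUBB4B (a tubulin), with 9 of its 13 regions at promoters. The other, of 134 kb at chr11:67139676-67273791, ran over 13 genes that include PPP1CA (a catalytic subunit of protein phosphatase 1), RAD9A (a DNA damage checkpoint protein), PTPRCAP (a partner of CD45) and CORO1B (a coronin). A cluster of 12 regions at chr16:30336010-30457744 covered SEPTIN1, CD2BP2 and ZNF48, and one of 10 at chr22:39837919-39929283 covered ATF4, the transcription factor of the integrated stress response, and MGAT3, a glycosyltransferase. None of the 10 largest increased clusters contained a decreased region, and none of the 10 largest decreased clusters contained an increased one. Each of these clusters spanned at most 189 kb, so few regions of the other direction were to be expected in them. Whether the directions keep apart was not tested. Single genes with many increased regions were GNG7 (a G protein subunit) with 10, HOOK2 with 9 and ZFPM1 (a cofactor of GATA factors) with 7. The largest decreased clusters were the 11 regions of BCL2 within 99.1 kb, then 5 regions each at ZNF595, at BACH2 and in a stretch of chromosome 13 with no coding gene in it, and 4 more at BACH2.

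The widest increased regions reached 2997 bp near ABHD15, 2988 bp near SAMD10, 2987 bp in an intron near BAHCC1, 2971 bp nearest to ANKRD46, 2968 bp over JUNB, 2957 bp near NACC1, 2953 bp at TNFRSF10D and 2942 bp at EZR, and all 8 were listed again in VAL at 8 h. The JUNB, NACC1 and EZR regions were listed in all 4 comparisons. Over all increased regions the median width was 1448 bp, and over decreased regions 1260 bp. No list of the series holds a region wider than 3026 bp.

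The share of opened promoters differed between chromosomes. It was highest on chromosomes 22 (34.2% of coding genes), 17 (28.1%), 16 (26.9%) and 19 (25.8%) and lowest among autosomes on chromosomes 18 (1.13%), 4 (1.84%) and 13 (1.86%). Decreased regions were spread the other way, with 0.926 per Mb on chromosome 4 and 0.976 on chromosome 6 against 0.0338 on chromosome 19 and 0.0390 on chromosome 22. Across the 22 autosomes the share of opened promoters rose with the density of coding genes (Spearman rho = 0.81, a description with no test, since the points share the same libraries and differ in base composition).

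**Figure D4:**
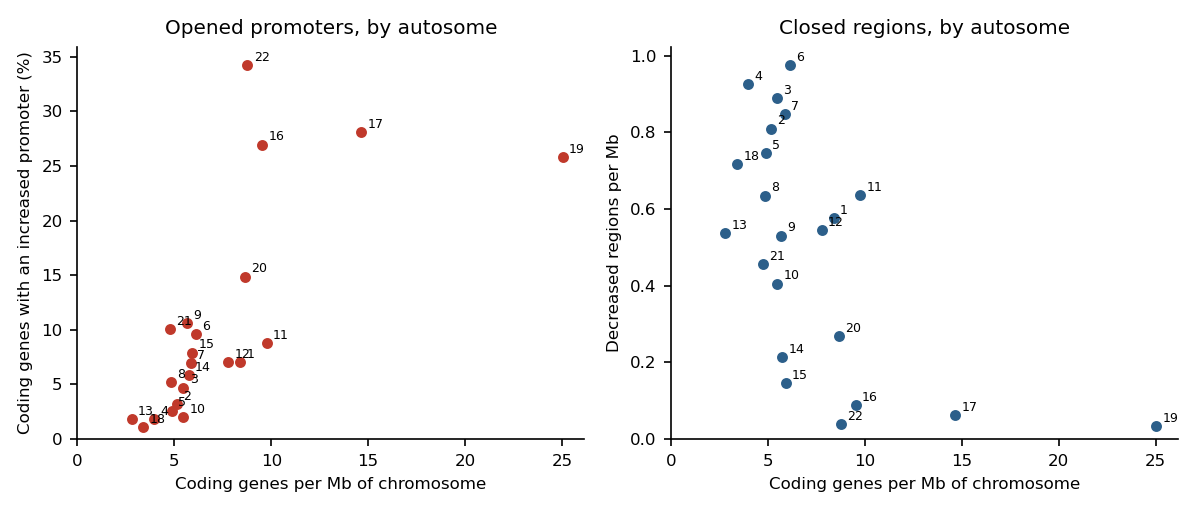
Percent of coding genes with an increased promoter (left, red) and decreased regions per Mb (right, blue) against coding genes per Mb, 1 point per autosome with its number. Chromosomes 16, 17, 19 and 22 lie between 25.8% and 34.2% on the left and at or below 0.0885 regions per Mb on the right.

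The sequence of the regions differed accordingly. The central 200 bp had a median GC content of 62.0% in increased and 41.5% in decreased regions. Windows rich in CpG, with a GC content of at least 50% and an observed-to-expected CpG ratio of at least 0.6, made up 1646 of 3545 increased regions (46.4%) and 51 of 1786 decreased regions (2.86%), an odds ratio of 29.2 (22.0 to 38.8, two-sided Fisher's exact test over regions, p = 1.9e-286, which compares the 2 lists, since regions are not replicates of the treatment), with the same direction on 22 of 22 autosomes. Outside promoters the shares were 7.24% and 1.69% (odds ratio 4.47, 2.95 to 6.76). Windows of repeated sequence, in which at least 50% of the 30-mers occur 10 or more times in the genome, were rare in both lists, 1.55% of increased (1.19 to 2.01) and 2.52% of decreased regions (1.89 to 3.35).

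Of the 14 motifs, 7 were more frequent in the increased windows. Each was searched on both strands without mismatch, and the 14 Fisher's exact tests were adjusted together by the Benjamini-Hochberg method. The SP/KLF letters GGGGCGGGG were in 9.48% of increased and 0.560% of decreased windows (adjusted p = 4.4e-47), and in 18.05% of the 200 bp windows centred on 19870 coding TSSs. The ETS letters CCGGAAGT were in 3.53% and 0.224% (adjusted p = 6.4e-17), against 5.08% of all coding promoters, and the YY1 letters AAGATGGCG in 1.95% and 0.0560% (adjusted p = 5.0e-11), against 2.72%. The E-box CACGTG was in 4.85% and 1.96% (adjusted p = 1.6e-07), the EBF letters TCCCNNGGG in 6.83% and 2.58% (adjusted p = 4.1e-11), and the E2A letters CAGCTG in 13.99% and 9.63% (adjusted p = 8.1e-06), against 5.66%, 5.94% and 13.8% of all coding promoters. The ZBTB33 letters TCTCGCGAG were in 0.451% of increased windows and in 0 of 1786 decreased ones (adjusted p = 0.0026), against 0.705% of all coding promoters. Of these 7, the ETS and SP/KLF differences alone passed among regions inside promoters, and the E2A, EBF and E-box differences did not (adjusted p = 0.63, 0.18 and 0.40). The EBF, E2A, E-box and SP/KLF differences also passed among regions outside promoters, where the E2A letters were in 18.98% of increased and 9.80% of decreased windows (adjusted p = 6.3e-13).

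Another 5 motifs were more frequent in the decreased windows. The octamer ATGCAAAT was in 3.25% of decreased and 1.35% of increased windows (adjusted p = 1.1e-05), against 0.7499% of all coding promoters. The PU.1 letters GAGGAAGT were in 3.92% and 1.81% (adjusted p = 1.1e-05, all promoters 1.69%), the RUNX letters TGTGGTT in 5.60% and 3.16% (adjusted p = 4.0e-05, all promoters 1.94%), the STAT letters TTCNNNGAA in 6.83% and 3.30% (adjusted p = 3.9e-08, all promoters 3.61%) and the HSF letters GAANNTTC in 5.43% and 3.30% (adjusted p = 0.00035, all promoters 3.17%). Among regions outside promoters the STAT difference alone of these 5 still passed (6.72% of decreased against 4.26% of increased windows, adjusted p = 0.0061), and the octamer, PU.1, RUNX and HSF differences did not, with adjusted p between 0.14 and 0.53. The NF-Y letters AGCCAAT (3.27% of increased, 2.35% of decreased, adjusted p = 0.078, all promoters 5.82%) and the MEF2 letters TAAAAATAG (0.564% and 0.728%, adjusted p = 0.46, all promoters 0.116%) did not pass. By autosome, the 5 motifs more frequent in decreased windows had that direction on 11 (PU.1), 12 (HSF) and 14 (octamer, RUNX and STAT) of 22, and the 7 more frequent in increased windows on 5 (ZBTB33), 16 (YY1), 18 (E-box, EBF and E2A) and 20 (ETS and SP/KLF). A match is a run of letters, not evidence of binding.

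**Figure D5:**
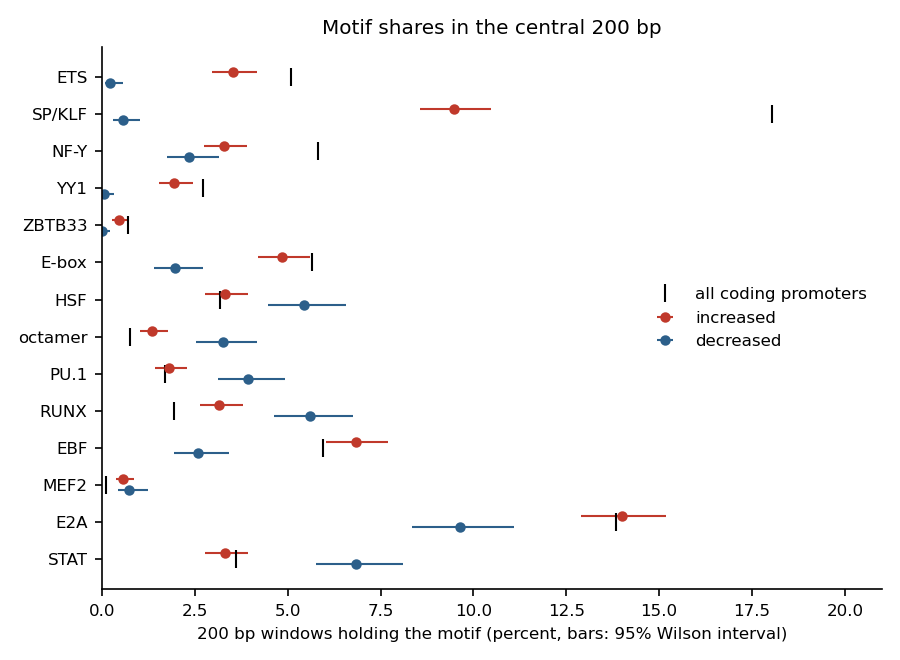
Percent of central 200 bp windows that hold each of 14 motifs in increased (red) and decreased (blue) regions, with 95% Wilson intervals, and in 200 bp windows centred on all coding TSSs (black ticks). SP/KLF separates the lists most widely in percentage points, 9.48% against 0.560%, and the octamer, PU.1, RUNX, STAT and HSF letters lie higher in decreased regions.

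Of the increased regions, 729 (20.6% of the VAL list, 39.4% of the 1852 in OCI-LY3) were listed with the same coordinates as increased in OCI-LY3 at 3 h, and 14 as decreased. Of the decreased regions, 277 (15.5% of the VAL list, 16.5% of the 1677 in OCI-LY3) were listed as decreased and none as increased. The share differed by position: 28.9% (26.9 to 31.0) of increased promoter regions were shared, against 12.4% (10.6 to 14.6) of increased intronic and 6.78% (4.92 to 9.29) of increased intergenic regions. Decreased regions in exons were shared in 34 of 86 cases (39.5%, 29.9 to 50.1). At the level of genes, 676 coding genes had an increased promoter in both lines, 32.5% of those in VAL and 56.7% of those in OCI-LY3. The shared set took in 16 of the 32 cytosolic ribosomal protein genes, 5 of the 8 pausing and elongation genes and 9 of the 16 translation factors opened in VAL, and 2 of the 13 Mediator genes (MED8 and MED22). None of the 11 replication-dependent histone promoters opened in VAL was in it, nor any of the 4 of the NOTCH pathway or the 5 of the JAK-STAT and SOCS list. These counts were not tested between lists.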

How the data were processed

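The series holds 24 ATAC-seq libraries. The authors used Bowtie2 for alignment against hg19, discarded reads that were mitochondrial, duplicated or not uniquely placed, called peaks in each library with MACS2 (q of 0.05), merged them with bedtools and tested counts with DESeq2. Called regions had a fold change of at least 1.5 and an adjusted p of 0.05 or 0.01, both of which the study states. Tool versions for the ATAC-seq steps are not given in the sources used here. The 8 deposited lists hold coordinates alone, with 0 columns of values per sample, so depth, fold changes and replicate spread cannot be read from them.

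Regions were placed on GENCODE release 44, lifted to GRCh37 (20136 coding genes). A promoter is 1000 bp on either side of any TSS, a locus is the gene and 10000 bp on either side, and a cluster joins regions within 20000 bp. Motifs and CpG were read in the central 200 bp. Shares have 95% Wilson intervals. For odds ratios 0.5 was added to every count, and their intervals are Wald intervals, with two-sided Fisher's exact tests over regions, adjusted by the Benjamini-Hochberg method over the 14 motifs. Python 3.11.15, scipy 1.17.1, pandas 2.3.3 and pysam 0.24.0 were used, and the scripts were tested on simulated data.

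The members, the 41 gene lists and the motifs were chosen with earlier results of these data known. Named genes were the list members with most called regions at the locus (up to 6 a list), genes the study names, genes of the 10 largest clusters in each direction and those nearest the 8 widest regions in each. The gene-end zone, the alternative without repeated windows and the genes named outside that rule were chosen after their values were seen. A few genes and 1 sequence are not reported here.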

Additional observations from a re-analysis of the deposited data

How the results depend on the processing

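Of 118 alternative values, 83 kept their direction and stayed near the reported value or on the same side of the threshold, 16 moved, 16 no longer passed, 1 newly passed and 2 reversed. Those that no longer passed kept their direction, except that ZBTB33 outside promoters had 0 matches in either list and so no direction. No paired analysis was possible because the lists hold called regions with no value per library, and for the same reason no library could be left out. Motifs more frequent in increased regions numbered 7 in all regions, 4 outside promoters and 2 inside them, and those more frequent in decreased regions 5, 1 and 2. The reversals were the NF-Y odds ratio over the whole region (0.980) and the MEF2 odds ratio outside promoters (1.41), and neither passed in the central windows. With 50000 bp on either side, 5957 genes had an increased and 1993 a decreased region at the locus. With promoters of 2500 bp on either side, 98 genes had a decreased promoter, and with regions also listed at 8 h, which share the 0 h libraries, 38 had a decreased promoter and 771 a decreased locus. By any overlap in place of the midpoint, increased regions were 55.5% promoter, 8.60% exon, 22.6% intron and 13.3% intergenic, and decreased regions 10.2% promoter, 11.0% exon and 46.5% intron. The gene-end odds ratio was 1.12 with a zone of 10000 bp, an alternative added after seeing the data. Apart from what the settings themselves change, the cause was not tested.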
